A study of Mus musculus with 5 samples.

Results

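The genes described here are the immunity-related GTPases Irgm1, Irgm2, Igtp, Iigp1, Tgtp2 and Ifi47 and the very large GTPase Gvin1. They were chosen by name, as 7 interferon-inducible GTPase genes, with their difference between the treatment groups already known, and the probe with the highest mean stood for each gene. Of the 7, 6 had a named probe among the 19505 named genes of the array. Ifi47 had none and was not analysed here. Expression was measured in whole subcutaneous melanomas of wild-type C57BL/6 mice aged 10 weeks, on 1 Affymetrix Clariom S array per tumour and mouse. The tumours grew from injected B16.F10 cells, a melanoma line of C57BL/6 origin, labelled here with luciferase and GFP. The 3 tumours of the first group came from mice given anti-PD-1 and RG7112, an oral MDM2 inhibitor, which keeps MDM2 from binding the tumour suppressor p53. The 2 tumours of the second group came from mice given anti-PD-1 and the vehicle, corn oil with 5% DMSO. RG7112 or vehicle was given by mouth every 2 days for 6 days, starting 2 days after the cells were injected. All 5 mice thus received anti-PD-1, an antibody to a receptor that restrains T cells, by injection on days 1, 4 and 8. The labels describe the samples as tumour cells mixed with infiltrating immune cells, and tumours were taken on day 13. Values are log2 signals, so that a difference of 1 is a doubling, and a level of 1 probe cannot be compared with that of another.

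Immunity-related GTPases (IRGs) are small GTP-binding proteins that mouse cells make when interferon, above all interferon gamma, reaches them. They are best known from infected macrophages and fibroblasts, where IRGs of the GKS type gather on the vacuole around parasites such as Toxoplasma and break its membrane. IRGs of the GMS type sit on the membranes of the cell itself and keep the GKS type inactive there, and both names are letters of the nucleotide-binding motif. By this textbook grouping Irgm1, Irgm2 and Igtp (also called Irgm3) are of the GMS type, and Iigp1 (Irga6), Tgtp2 (Irgb6) and Ifi47 (Irgd) are of the GKS type. Gvin1 belongs to a separate family of very large interferon-inducible GTPases.

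Promoter sequences are shown because interferon acts on these genes through short DNA elements close to their starts. Interferon gamma acts through the gamma-activated site (GAS), searched as TTCNNNGAA. Factors of the IRF family, and a complex that contains STAT2 and IRF9, recognise the interferon-stimulated response element (ISRE), searched as GAAA, any 2 bases, then GAAA. RefSeq promoters of build GRCm38.p6 were listed and searched here for 5 of the 7 members, and Iigp1 and Gvin1 were not searched. Both strands of the 250 bases before each start were searched, and overlapping matches were counted. The 4 members with a match are printed 5′ to 3′ on the strand of the gene, with GAS and ISRE matches in capitals. They lie at chr11:48871421-48871670 (minus strand) for Irgm1, chr11:58214727-58214976 (plus strand) for Irgm2, chr11:58199306-58199555 (plus strand) for Igtp and chr11:49064213-49064462 (minus strand) for Tgtp2.
Irgm1: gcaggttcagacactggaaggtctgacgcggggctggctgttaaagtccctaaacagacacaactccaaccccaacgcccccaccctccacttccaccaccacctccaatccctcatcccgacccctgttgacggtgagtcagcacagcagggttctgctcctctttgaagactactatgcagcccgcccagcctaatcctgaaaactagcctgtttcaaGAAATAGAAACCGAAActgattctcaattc
Irgm2: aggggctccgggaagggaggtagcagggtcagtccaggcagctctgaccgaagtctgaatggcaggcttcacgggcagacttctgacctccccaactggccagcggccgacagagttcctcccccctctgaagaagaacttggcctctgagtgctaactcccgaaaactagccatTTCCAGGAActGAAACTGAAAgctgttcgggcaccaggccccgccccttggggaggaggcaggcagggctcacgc
Igtp: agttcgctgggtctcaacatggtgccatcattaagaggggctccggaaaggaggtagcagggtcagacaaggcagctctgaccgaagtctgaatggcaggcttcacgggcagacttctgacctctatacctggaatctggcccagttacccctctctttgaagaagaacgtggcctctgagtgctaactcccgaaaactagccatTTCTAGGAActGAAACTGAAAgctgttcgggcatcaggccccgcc
Tgtp2: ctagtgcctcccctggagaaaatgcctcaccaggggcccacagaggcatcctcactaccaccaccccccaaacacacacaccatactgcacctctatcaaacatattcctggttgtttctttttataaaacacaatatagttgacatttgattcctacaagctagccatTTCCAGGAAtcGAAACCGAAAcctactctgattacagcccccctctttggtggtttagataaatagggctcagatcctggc

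Irgm2, Igtp and Tgtp2 each held 1 GAS followed 2 bases later by 1 ISRE. Counted from the start, the ISRE began at base -64 in Irgm2, -34 in Igtp and -70 in Tgtp2. Irgm1 held 2 overlapping ISRE matches, the nearer ending at base -15, and no GAS match. The Ifi47 window held no match to either motif. Of all 32851 listed promoters, 2.98% held an ISRE, 7.02% a GAS, 0.332% both, and 0.0944% both within 10 bases of each other. The upstream stretches of Irgm2 and Igtp, neighbouring genes, aligned over 221 bases with 89.1% identity and shared an unbroken run of 55 bases. Irgm1 and Irgm2 aligned over only 99 bases, with 70.7% identity. A match is a description of the letters and does not show that a factor was bound.

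**Figure D1:**
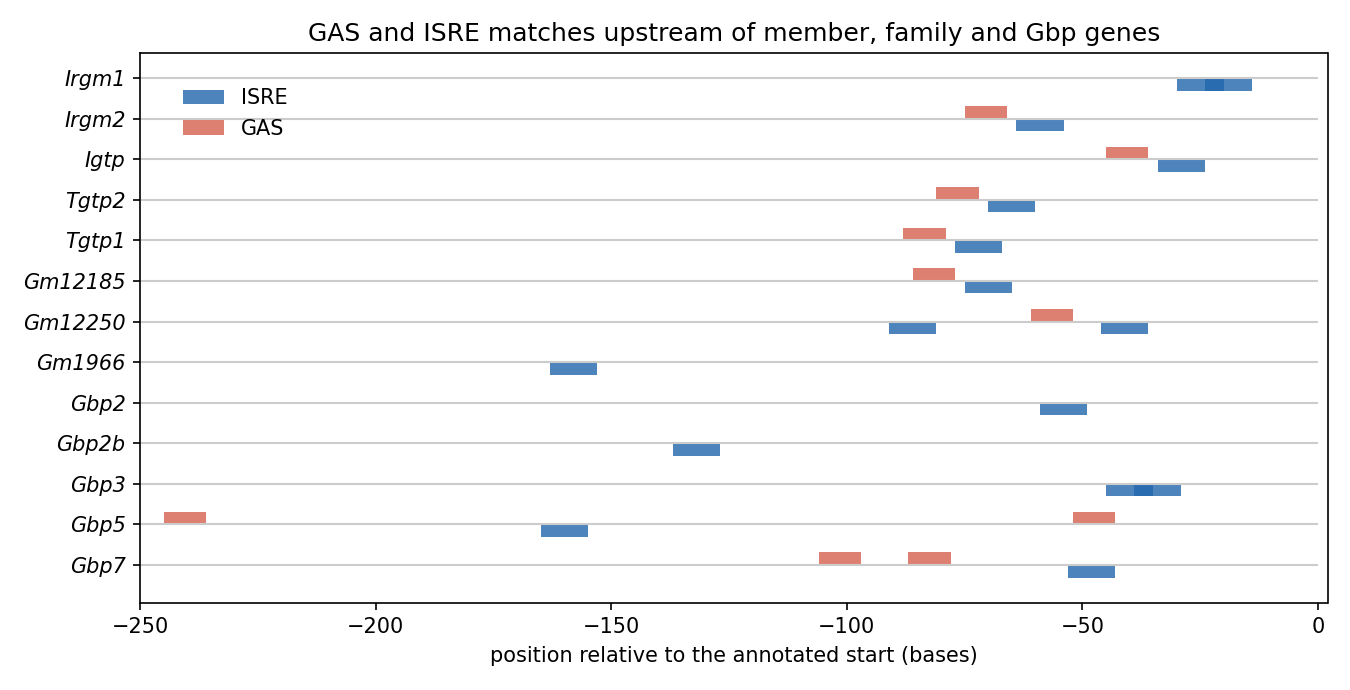
Positions of GAS and ISRE matches in the 250 bases before the annotated start (x axis, bases) of each member, relative and Gbp gene that holds at least 1 match (rows). Genes without a listed promoter and genes on chromosome 18 are not shown. Irgm2, Igtp, Tgtp2, Tgtp1 and Gm12185 show a GAS followed 2 bases later by an ISRE, and Irgm1 shows 2 overlapping ISRE matches.

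Transcripts of all 6 measured members were higher in the 3 RG7112 tumours than in both vehicle tumours. Their log2 differences ran from 1.05 for Irgm1 to 2.23 for Gvin1, with a median of 1.66, against a median of -0.03 over all 22203 probes. All 6 passed limma's adjusted p under 0.05 for a rise. That call was given to 1.42% of all probes, and 10.8% of all probes had every RG7112 tumour above both vehicle tumours. Because the members were chosen with this contrast known, these counts describe them and give no support. In whole tumours, more cells of a type and more RNA per cell cannot be told apart. Labels do not state that arrays were processed together, and scan dates were not used here.

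Among the GMS members, Irgm1, which also takes part in autophagy of mycobacteria, was measured at 11.74, 11.41 and 11.10 in the RG7112 tumours, against 10.63 and 10.11 in the vehicle tumours. All RG7112 tumours were above both vehicle tumours, by at least 0.47 on the log2 scale. The log2 difference of Irgm1 was 1.05 ± 0.22 (SE, n = 3 and 2), or 2.07-fold. Irgm2, a GMS protein of the Golgi and other endomembranes, stood at 10.43, 10.28 and 10.00 in the RG7112 tumours, against 8.83 and 8.26 in the vehicle tumours. The gap between its groups was 1.16, wider than the 0.57 between its vehicle tumours. Its log2 difference was 1.69 ± 0.21 (SE), or 3.22-fold. Igtp, a GMS protein of the endoplasmic reticulum and of lipid droplets, was at 10.47, 10.10 and 10.18 in the RG7112 tumours, against 8.92 and 8.16 in the vehicle tumours. Its groups were 1.18 apart, and its log2 difference was 1.71 ± 0.22 (SE), or 3.28-fold.

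Among the GKS members, Iigp1, an effector that coats parasite vacuoles, was at 9.79, 9.24 and 9.04 in the RG7112 tumours, against 8.13 and 7.32 in the vehicle tumours. It had the widest spread of the 6 members in both groups, with an SD of 0.39 among RG7112 tumours (n = 3) and 0.57 among vehicle tumours (n = 2). Its log2 difference was 1.64 ± 0.26 (SE), or 3.11-fold, and the groups did not overlap. Tgtp2, the GKS protein Irgb6, was at 11.90, 11.84 and 11.74 in the RG7112 tumours, against 10.60 and 10.22 in the vehicle tumours. The 3 RG7112 tumours lay close together, with an SD of 0.08, and the log2 difference was 1.41 ± 0.17 (SE), or 2.66-fold. A near-identical neighbouring copy, Tgtp1, had no named probe, so the signal of Tgtp2 may include it.

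Gvin1, the very large GTPase, was at 8.12, 7.85 and 7.81 in the RG7112 tumours, against 5.37 and 6.02 in the vehicle tumours. Its groups were 1.79 apart, the widest gap of the 6 members, and its log2 difference was 2.23 ± 0.21 (SE), or 4.68-fold. Related genes and pseudogenes lie beside it on the same chromosome, and whether its probe also detects them was not tested.

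**Figure D2:**
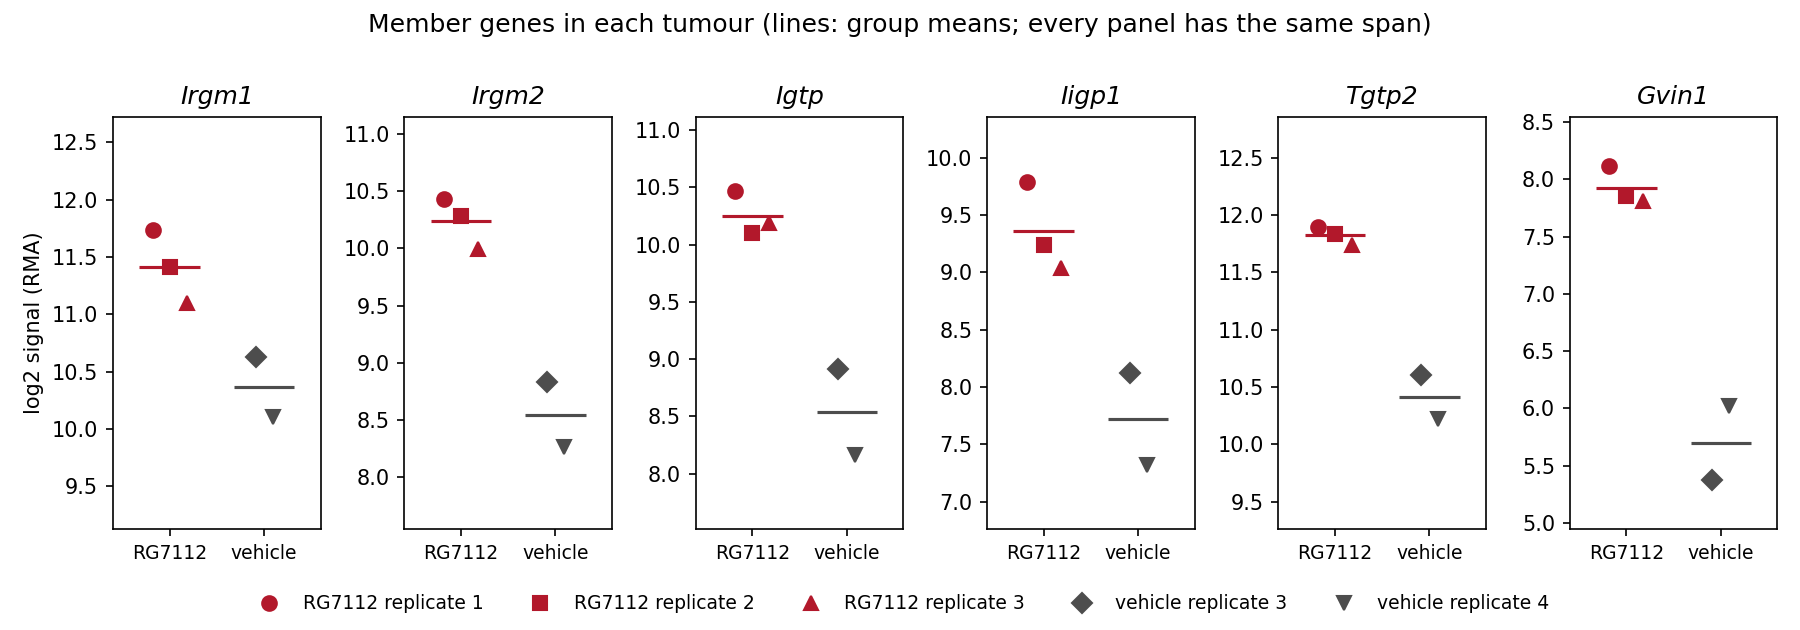
Log2 signal (y axis) of each of the 6 measured members in each tumour, RG7112 on the left and vehicle on the right of each panel, with lines at group means and the same span of log2 units in every panel. No member's groups overlap, and Gvin1 alone is higher in vehicle replicate 4 than in vehicle replicate 3.

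The members followed much the same order across tumours. All 6 were highest in RG7112 replicate 1, whose array also had the widest spread of values, with quartiles of 4.02 and 7.85 against 4.13 and 7.74 in vehicle replicate 4. The part of that spread in the members' values was not tested. Of the 6, 5 were lowest in vehicle replicate 4, and Gvin1 was lowest in vehicle replicate 3. Without vehicle replicate 4 the 6 differences ran from 0.79 for Irgm1 to 2.55 for Gvin1, with a median of 1.28, and only Gvin1 kept limma's call. A fit that leaves out 1 vehicle tumour has 1 left, assumed to vary as the RG7112 tumours do, so a call lost there, for any gene named here, also reflects the smaller design. Without vehicle replicate 3 they ran from 1.31 for Irgm1 to 2.09 for Igtp, with a median of 1.94, and all but Irgm1 were called. Irgm1 also lost its call without RG7112 replicate 1 or 2.

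Compared with each other, Irgm1 had the smallest difference. Its log2 difference was lower than that of the other 5 by 0.36 ± 0.19 (SE, against Tgtp2) to 1.18 ± 0.46 (SE, against Gvin1). Irgm2 and Igtp, which share most of their upstream sequence, differed from each other by -0.02 ± 0.16 (SE, Irgm2 minus Igtp). Against Iigp1, a gene of another chromosome, Irgm2 differed by 0.05 ± 0.18 and Igtp by 0.08 ± 0.18 (SE). Against Tgtp2 the values were 0.28 ± 0.13 and 0.30 ± 0.18, and against Gvin1 -0.54 ± 0.46 and -0.51 ± 0.53. A link to the upstream sequence was not tested. These pairs share the same 5 tumours and their values are descriptions.

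The means of the GMS and GKS types lay close together in each tumour. Relative to the vehicle mean, the 3 GMS members averaged 1.73, 1.45 and 1.27 in RG7112 replicates 1, 2 and 3, and the 2 measured GKS members averaged 1.78, 1.47 and 1.32 in the same tumours. The vehicle tumours were 0.31 above and below their mean for GMS and 0.30 above and below for GKS. GMS minus GKS was -0.05, -0.03 and -0.05 in the RG7112 tumours, a mean of -0.04 ± 0.01 (SE). The sign of this small value depended on the summary. With the median over members in place of the mean it was 0.11. With the GKS gene Gm12250 (Irgb10) added it was -0.21, and with all 7 measured genes of the Irga and Irgb groups added it was also -0.21, both choices made after the data were seen.

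**Figure D3:**
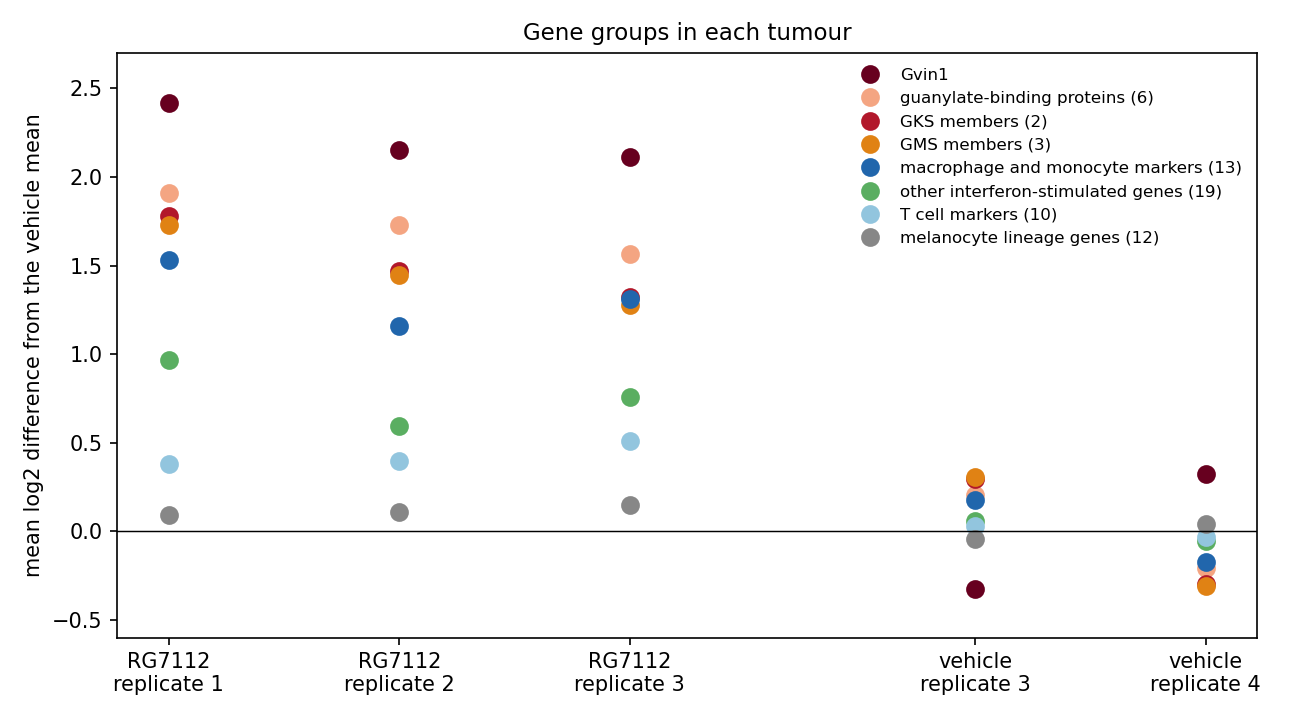
Mean log2 difference from the vehicle mean (y axis) of each gene group in each tumour (x axis), with the number of genes in brackets. GMS and GKS members lie within 0.05 of each other in every tumour. In the RG7112 tumours both lie below the guanylate-binding proteins and above the other interferon-stimulated genes, with the macrophage and monocyte markers at 1.53, 1.16 and 1.31.

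Other genes of the IRG and very large GTPase families, not among the members, were tested in the same fit. Of 25 names listed, 10 had a probe, and 7 rose, 0 fell and 3 did not pass, with a median log2 difference of 1.63. Falls were called for 0.0315% of all probes. Gm4951, an Irga gene, was at 8.92, 8.57 and 8.24 in the RG7112 tumours, against 6.54 and 6.35 in the vehicle tumours, and rose by 2.14 ± 0.20 (SE; limma adjusted p = 0.000490). Gm12250 encodes Irgb10, a GKS protein that also helps guanylate-binding proteins open bacteria. It was at 10.40, 9.79 and 10.27 in the RG7112 tumours, against 8.31 and 7.93 in the vehicle tumours, and rose by 2.04 ± 0.21 (SE; limma adjusted p = 0.000703). In neither gene did the groups overlap.

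The paired Irgb genes 9930111J21Rik1 and 9930111J21Rik2 rose by 1.702 ± 0.20 and 1.78 ± 0.19 (SE), and Gm5431 by 1.72 ± 0.20. The 250 bases before the starts of 9930111J21Rik1, 9930111J21Rik2 and Gm5431 held no match to GAS or ISRE. F830016B08Rik, an Irga gene, rose by 1.29 ± 0.23, a call lost without RG7112 replicate 2, vehicle replicate 3 or vehicle replicate 4, where the log2 difference was 1.20, 1.20 and 1.38. Gm1966, of the very large GTPase family, rose by 1.54 ± 0.16. Gm4841 differed by 1.57 ± 0.34 and fell just short (limma adjusted p = 0.0503), with 9.69 in RG7112 replicate 1 and 8.35 and 8.65 in the other RG7112 tumours, against 7.65 and 7.003 in the vehicle tumours. The call of 9930111J21Rik1 was lost without vehicle replicate 4. Of the remaining pair, Irgc1, known from testis, differed by 0.13 ± 0.20 and Irgq by -0.18 ± 0.18 (limma adjusted p = 0.928 and 0.872). Many of these genes are close copies, so probes may share signal, which was not tested.

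The members and 8 of the 10 measured relatives, all but Irgc1 and Irgq, lie in 4 clusters. The first chromosome 11 cluster runs from Irgm1 through Gm5431, the 2 9930111J21Rik genes, Tgtp1 and Tgtp2 to Ifi47, and the second holds Gm12250, Igtp and Irgm2. The chromosome 18 cluster holds Gm4951, Gm4841, F830016B08Rik and Iigp1, and Gvin1 and Gm1966 lie on chromosome 7. Of the 16 nearest measured genes outside these clusters, 2 on each side of each, limma called 0, none had an unadjusted p under 0.05, and their log2 differences ran from -0.32 to 0.43 with a median of 0.01. The dimmest were Olfr1396, Olfr1395, Olfr693, Olfr694, Smim3 and Minar2. Their group means were 3.01 to 4.65, below the array medians of 5.76 to 5.81, so a change in them could be hard to see. Trim7, a ubiquitin ligase gene beside Irgm1, differed by -0.32 ± 0.15 (SE), and Mrpl22, a mitochondrial ribosome gene beside Gm12250, by 0.20 ± 0.17. Within the first cluster lies 1 measured gene of another family, Psme2b, a relative of the proteasome activator gene Psme2. It was at 8.22, 8.13 and 8.25 in the RG7112 tumours, against 7.09 and 7.39 in the vehicle tumours, and rose by 0.96 ± 0.16 (SE; limma adjusted p = 0.0119).

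**Figure D4:**
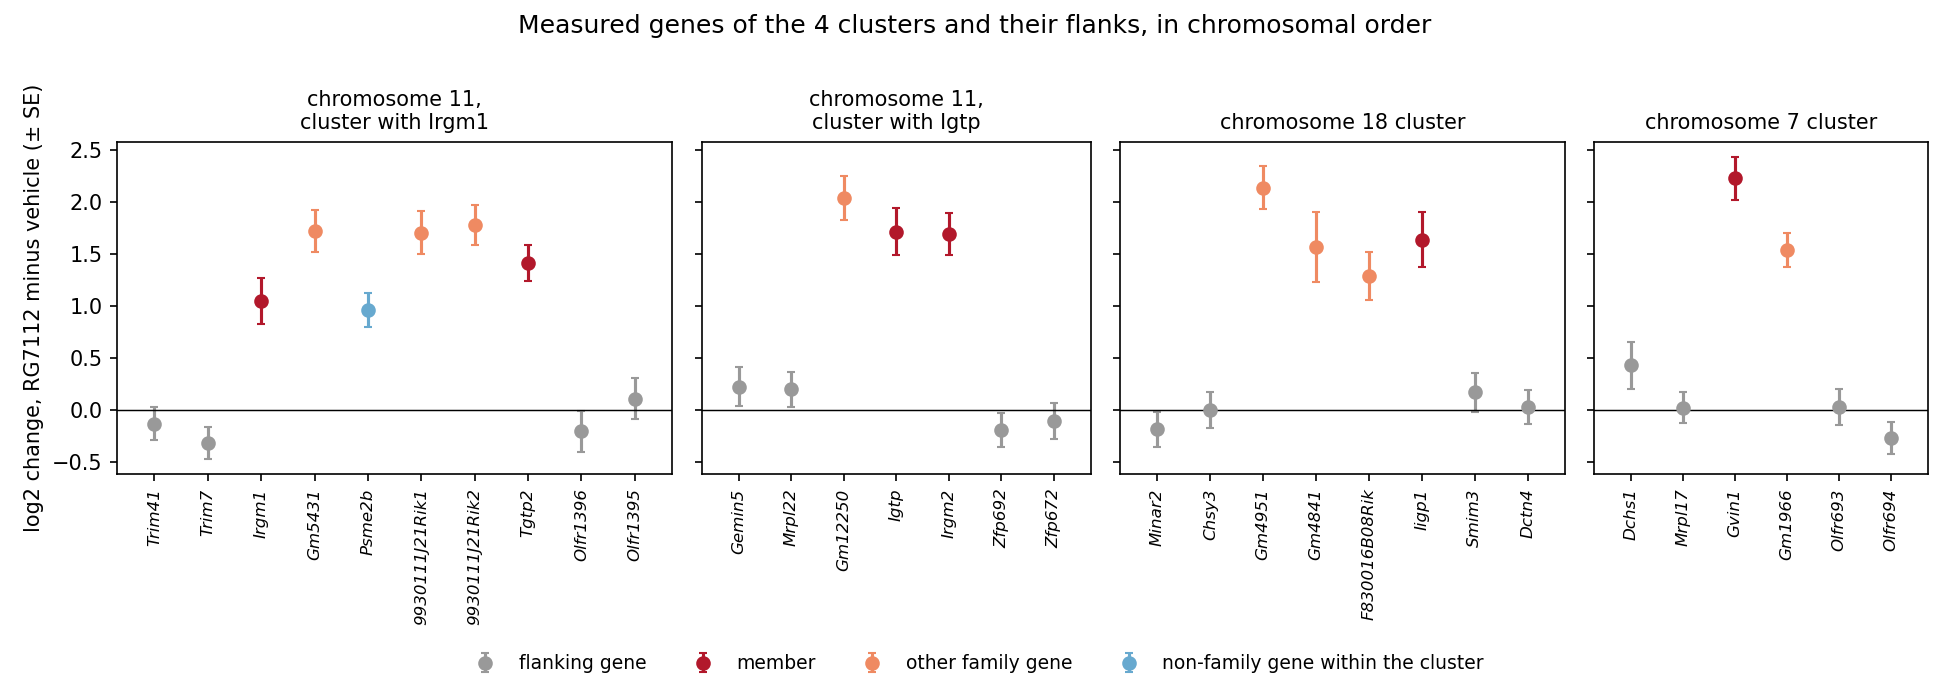
Log2 difference of RG7112 minus vehicle (y axis, points with SE bars) for the measured genes of each cluster and 2 flanking genes per side, in chromosomal order (x axis, not to distance). Members and relatives lie between 1.05 and 2.23, Psme2b at 0.96, and the 16 flanking genes between -0.32 and 0.43.

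Guanylate-binding proteins (GBPs), larger interferon-induced GTPases that load onto the same vacuoles, were also higher. All 6 measured of 11 listed rose, with a median log2 difference of 1.82. Gbp9 rose by 1.91 ± 0.17 (SE), Gbp8 by 2.05 ± 0.20, Gbp4 by 1.86 ± 0.22 and Gbp3 by 1.78 ± 0.22 (limma adjusted p from 0.000353 to 0.00184). Of the Gbp genes, Gbp3 lost its call without vehicle replicate 4, as did Gbp2 and Gbp7. Other interferon-stimulated antiviral genes, outside these GTPase families, were listed too, with the dynamin-like GTPases Mx1 and Mx2 among them. Of 19 measured, 5 rose, 0 fell and 14 did not pass, with a median of 0.83. All 19 differences were above 0, and 17 were higher at an unadjusted limma p under 0.05, beside 1073 of all 22203 probes. In 17, all RG7112 tumours were above both vehicle tumours, as in 10.8% of all probes. Rtp4, a chaperone of receptors that is also induced by interferon, rose by 1.31 ± 0.20, Oasl2 by 1.21 ± 0.19, the antiviral enzyme Rsad2 by 1.10 ± 0.16 and Ifit3, which binds viral RNA complexes, by 1.02 ± 0.17. Rtp4 lost its call without vehicle replicate 4, and the other 3 lost theirs when either vehicle tumour was left out. The fifth, Xaf1, lost its call whichever tumour was left out. The difference between these lists and the members was not tested.

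The genes that lead from interferon to these promoters were tested in the same fit. Over all 22203 probes, 1073 were higher and 901 lower at an unadjusted p under 0.05, beside which the unadjusted counts given for lists can be read. Ifng, the ligand, was at 5.18, 4.57 and 4.29 in the RG7112 tumours, against 3.92 and 4.69 in the vehicle tumours, so that the groups overlapped (0.38 ± 0.28, SE; limma adjusted p = 0.790). Its group means, 4.68 and 4.30, lay closer to the lower quartiles of the arrays (4.02 to 4.13) than to their medians (5.76 to 5.81). A change in a gene so dim could be hard to see. Ifngr1, the receptor chain that binds this ligand, differed by -0.03 ± 0.15 (adjusted p = 0.982 in limma). Of 8 measured genes of interferon gamma signalling, 2 were higher at an unadjusted p under 0.05, and Irf1 alone passed, an IRF factor that binds the ISRE. Irf1 was at 9.86, 9.78 and 9.58 in the RG7112 tumours, against 8.81 and 8.24 in the vehicle tumours, and rose by 1.22 ± 0.20 (SE; limma adjusted p = 0.00890). Without vehicle replicate 4, Irf1 was not called. Of 12 genes of type I interferon signalling only Stat2, part of the ISRE-binding complex, passed, at 0.89 ± 0.16 (SE; limma adjusted p = 0.0181), with 4 higher and 1 lower at an unadjusted p under 0.05. Irf7, an IRF factor that amplifies type I interferon, had the larger difference, 1.15 ± 0.26, and Irf9, a partner of Stat2, had 0.65 ± 0.15 (SE; limma adjusted p = 0.0638 and 0.0786). In both, all RG7112 tumours were above both vehicle tumours. Of 9 feedback genes only Usp18, a brake on type I receptor signalling, passed, at 0.94 ± 0.18 (SE; limma adjusted p = 0.0238). The calls of Stat2 and Usp18 were each lost on leaving out vehicle replicate 3 or 4, or RG7112 replicate 1 or 3.

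The machinery that places IRG proteins on vacuoles was measured too. This is the conjugation system of ATG8 proteins, which it shares with autophagy. Of its 15 genes limma called 0, and 1 had an unadjusted p under 0.05, Atg16l1 (0.47 ± 0.19, SE; limma adjusted p = 0.476). Atg5 differed by 0.09 ± 0.17, Gabarapl1 by 0.30 ± 0.15, and the median of the list was 0.01. Of 13 genes of autophagy initiation limma called 0 and none had an unadjusted p under 0.05, with a median of -0.07, and Atg9a differed by -0.32 ± 0.16 and Atg2a by -0.34 ± 0.19. Among 7 measured ligases and adaptors that gather on coated vacuoles, Trim21, a ubiquitin ligase that binds antibodies inside cells, rose by 1.26 ± 0.22 (SE; limma adjusted p = 0.0131), 0 fell and 6 did not pass. Its call was lost without RG7112 replicate 3 or either vehicle tumour.

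Targets of p53 were read at day 13, after the 6-day oral course that began 2 days after injection had ended. A response during the course was not measured, and in simulated data limma recovered only 1.00% of probes raised by 0.5. Of 15 measured targets limma called 0, with 1 higher and 1 lower at an unadjusted p under 0.05, and the median log2 difference was -0.02. Mdm2, a p53 target that encodes the protein RG7112 binds, was at 9.97, 9.65 and 9.20 in the RG7112 tumours, against 9.28 and 9.26 in the vehicle tumours (0.34 ± 0.21, SE; limma adjusted p = 0.738). The targets with the smallest p were Plk2 (0.64 ± 0.16) and Sesn2 (-0.49 ± 0.18).

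**Figure D5:**
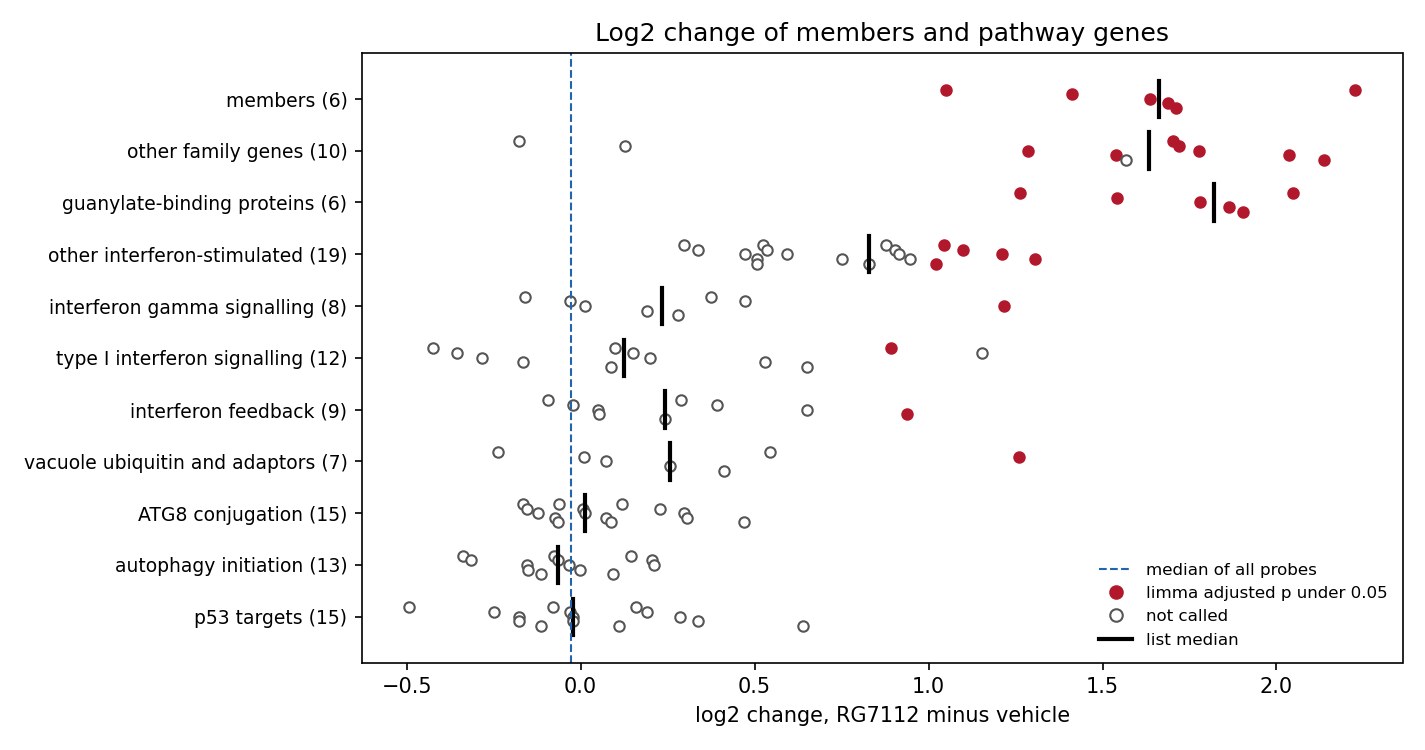
Log2 difference of RG7112 minus vehicle (x axis) for each member and each measured pathway gene (points, filled where limma's adjusted p was under 0.05), by list (rows, number of genes in brackets), with list medians (bars) and the median of all probes (dashed line). Members, other family genes and GBPs have medians of 1.66, 1.63 and 1.82, and the ATG8 conjugation, autophagy initiation and p53 target lists have medians of 0.01, -0.07 and -0.02.

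Markers of cell types were measured in the same tumours, and only the macrophage and monocyte markers were mostly called higher. Of 13 measured macrophage and monocyte markers 9 rose, 0 fell and 4 did not pass, with a median log2 difference of 1.34, and that of Aif1, 2.57 ± 0.20 (SE), was larger than that of any member. Their summed linear signal was 3516 to 4199 in the RG7112 tumours, against 1328 to 1810 in the vehicle tumours. Of 10 T cell markers 1 rose, with 4 higher at an unadjusted p under 0.05, and the summed signal was 430.0 to 480.1 in the RG7112 tumours, against 321 to 342 in the vehicle tumours. Of 9 NK cell markers limma called 0, with 4 at an unadjusted p under 0.05, and the summed signal was 297 to 360.4 in the RG7112 tumours, against 171 to 248 in the vehicle tumours. The 4 were Nkg7 (0.88), Prf1 (0.75), Gzmb (1.004) and Klrk1 (0.61). The other NK cell markers, Ncr1, Klrb1c, Klrd1, Eomes and Gzma, differed by 0.07, 0.08, 0.12, 0.15 and 0.35. Ncr1, Klrb1c and Klrd1 lay below the lower quartile of every array, where a change could be hard to see. Of 12 melanocyte lineage genes, which mark the tumour cells, limma called 0, with 1 at an unadjusted p under 0.05. Of 9 dendritic cell and 8 endothelial markers 1 each rose, with 2 and 4 higher at an unadjusted p under 0.05. Of 5 B cell, 7 neutrophil and 8 fibroblast markers limma called 0, with 0, 1 and 2 at an unadjusted p under 0.05. RMA values have no true zero, so no marker was at 0. The part of these markers in the members' difference was not tested.

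The genes whose tumour-by-tumour pattern was nearest to the members' mean pattern were found by root mean square distance, over the 5 tumours, between log2 values centred on each gene's mean. They were Ms4a6b (distance 0.0656), a membrane protein of leukocytes, Atp8b4 (0.0685), a lipid flippase, Sh2d1b1 (0.0688), an adaptor of SLAM receptors, Gbp2 (0.0716), C1qb (0.0885), a chain of complement C1q made by macrophages, and 9930111J21Rik2 (0.0904). The median distance of the other 19499 named genes was 0.842. Of the members, Irgm2 was nearest to their mean pattern (0.0818) and Gvin1 farthest (0.447). The measure depends on the size of the difference between the groups as well as on the order of tumours, and it describes these 5 arrays only.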

How the data were processed

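The deposited values are log2 signals, 1 per probe set (called probe) and tumour. The authors made them with oligo and RMA, per the submitters' processing notes, with no version given in the sources used. The platform annotation gave 1 symbol to 19572 of 22203 probes, several to 0 and none to 2631. Each of the 19572 Entrez identifiers matched RefSeq's gene table.

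RG7112 was compared with vehicle over all probes in R 4.3.3 with limma 3.58.1 (lmFit and eBayes, no covariate, 3 residual and 7.92 prior degrees of freedom), with p-values adjusted by Benjamini-Hochberg across all probes and calls at adjusted p under 0.05. An SE of a single gene comes from this fit; one of a difference between genes or types comes from the within-tumour differences. The number of arrays limits precision, since an exact permutation test of 3 against 2 tumours cannot give a p below 0.1. The members and lists were chosen with earlier results of these data known, and members get no p. In simulated data for this comparison (10 sets of 22203 probes) limma recovered 58.6% of probes raised by 1, 99.6% of those raised by 2 and 1.00% of those raised by 0.5, and 5.05% of calls were false on average.

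Named from the lists were, per list, up to 4 called genes of smallest p, or 2 where none was called, plus Ifng, Ifngr1, Irf1, Atg5 and Mdm2, all measured relatives, and the 6 genes nearest in pattern; 1 further gene of this rule is not reported here. Gbp7, Xaf1, Mx1, Mx2, Irf7, Irf9, Trim7, Mrpl22, Psme2b, Aif1 and the genes of close GAS and ISRE pairs were named after their values were seen. The same holds for the NK cell markers and the dim flanking genes. Tried as alternatives were a robust fit, an intensity trend, array weights, repeated quantile or cyclic loess normalization, no dim probes (mean below the 40th percentile), 1 probe per gene, adjusted p under 0.10, and each tumour left out. The planned search of member proteins for the nucleotide-binding motif was not run, as protein sequences were not used here.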

Additional observations from a re-analysis of the deposited data

How the results depend on the processing

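Leaving out each tumour in turn gave 1 to 6 members called (1 without vehicle replicate 4), a median difference of 1.28 to 1.94, 65 to 268 probes called higher and 0 to 5 lower, of 315 and 7 with all tumours (1566 probes had an unadjusted p under 0.05 without vehicle replicate 4). Without a vehicle tumour the other is assumed to vary as the RG7112 tumours do. Leaving out tumours left 3 to 6 GBPs, 5 to 8 other family genes, 0 to 1 interferon gamma signalling genes, 0 to 2 type I signalling genes, 0 to 1 feedback genes, 0 to 1 vacuole adaptors and 0 to 5 other interferon-stimulated genes called higher. Repeated quantile normalization called 5 members, without Irgm1. Type I signalling genes called higher, 1 in the fit reported, numbered 2 with an intensity trend, 2 with array weights and 3 at adjusted p under 0.10. Other interferon-stimulated genes, 5 in the fit reported, numbered 8, 9 and 9 under the same settings. Probes called lower numbered 16 with array weights, 4 with cyclic loess, 2 without dim probes and 29 at adjusted p under 0.10. GMS minus GKS was 0.11 by the median, -0.21 with Gm12250 and -0.21 with all Irga and Irgb genes. The cause of these changes was not tested. With 1 mismatch allowed, 31.4% of all promoters held an ISRE and all 5 listed members did, and 55.2% of all promoters and all 5 members held the looser GAS, TTNNNNNAA. No paired analysis was made because the labels give no pairing of RG7112 tumours with vehicle tumours.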

Other observations

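A close pair of GAS and ISRE stood before 17 measured genes that are not members. It was counted where at most 10 bases lay between the motifs, in either order and with overlaps allowed. This is looser than the GAS followed 2 bases later by an ISRE before Irgm2, Igtp and Tgtp2. The pair was chosen after the promoters and values had been seen. Of the 17 genes 3 rose and 0 fell (17.6% called higher, against 1.35% of the 15687 measured genes with a listed promoter), with a median log2 difference of 0.24. They were Gm12250 (2.04 ± 0.21, SE), Myd88, the adaptor of Toll-like receptors (1.01 ± 0.17, SE; limma adjusted p = 0.0119), and Parp11, an ADP-ribosyltransferase (0.94 ± 0.15, SE; limma adjusted p = 0.00966). Gm12250 is itself an IRG gene, of the cluster with Igtp and Irgm2, so the share called higher includes a relative of the members. Bst2, which tethers budding viruses, differed by 0.95 ± 0.21 and did not pass (limma adjusted p = 0.0522). Among 540 measured genes with an ISRE, 34 rose, which is 6.30%, and among 1214 with a GAS, 28 rose, which is 2.31%. These shares are descriptions and were not tested.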
